A study of Mus musculus with 18 samples.

Results

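Caspases are cysteine proteases that are made as inactive zymogens and cut their substrates after aspartate. Initiator caspases are switched on within large adaptor complexes: caspase-8 at death receptors, caspase-9 on the apoptosome that forms when mitochondria release cytochrome c, and caspase-2 on the PIDDosome, which responds to extra centrosomes and DNA damage. Effector caspases, caspase-6 among them, cut structural and signalling proteins, and lamin A is a classical caspase-6 substrate. The inflammatory caspases act in pyroptosis: caspase-1 matures interleukin-1β and interleukin-18 on inflammasomes, and the mouse Casp4 product, also known as caspase-11, senses cytosolic lipopolysaccharide and cuts gasdermin D. Caspase-12 has been linked to endoplasmic reticulum stress and to dampening of caspase-1. In obese adipose tissue, the inflammasome caspases are best known from macrophages that gather around dying adipocytes.

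The 7 caspase genes described here, Casp1, Casp2, Casp4, Casp6, Casp8, Casp9 and Casp12, were found by symbol among the 25124 genes of the deposited count tables. RNA came from 3 fat depots of male mice on a C57BL/6J background: the inguinal (iWAT) and epididymal (eWAT) white depots and brown fat (BAT). Global caspase-6 knockout (C6KO) mice, which lack the gene in every cell type and not only in adipocytes, were compared with wildtype (WT) littermates or cagemates bred from heterozygous parents. Both genotypes were fed a 60% high-fat diet (HFD) during 12 weeks, starting when 10 to 14 weeks old, and were fasted for 10 h before tissue collection, so no lean or chow-fed group enters any comparison. Each depot had 3 WT and 3 C6KO libraries, 18 in all. The labels do not say whether depots with the same number came from 1 mouse.

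The iWAT libraries held 16506034 to 19043523 counts each and the eWAT libraries 16717201 to 19139694. The BAT libraries were shallower, with 7803108 to 12428683, and their values carried more counting error. The tissue labels were checked against marker genes. Adipoq, the adipocyte hormone adiponectin, was at 782 to 3690 CPM, the count scaled to the library's total and its TMM factor, in the 18 libraries. Ucp1, which defines brown adipocytes, was at 4470 to 11000 CPM in BAT and at most 5.53 CPM in the white depots. Skeletal muscle markers varied most within BAT, where the summed CPM of 6 muscle genes ran from 41.0 in WT replicate 1 to 30800 in WT replicate 2, and was 369 to 6260 in the C6KO libraries. In iWAT, C6KO replicate 3 stood apart from its group by its macrophage markers, which are given beside the results.

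All 7 genes passed the filter on low counts in each depot. In mm10 the genes lie on 5 chromosomes, all on the plus strand. Casp1 (chromosome 9, 5298517 to 5307281, 10 exons), Casp4 (5308849 to 5336791, 9 exons) and Casp12 (5345476 to 5373034, 11 exons) are direct neighbours, with 1568 bases between Casp1 and Casp4 and 8685 bases between Casp4 and Casp12. Casp6 lies on chromosome 3 (129901415 to 129914112, 7 exons), Casp8 on chromosome 1 (58795374 to 58847503, 9 exons), Casp9 on chromosome 4 (141793612 to 141815978, 9 exons) and Casp2 on chromosome 6 (42264985 to 42282508, 11 exons). Casp8 has Cflar, the gene of its catalytically dead relative and inhibitor c-FLIP, as its lower neighbour, 36492 bases away. In Casp9, 94 exon bases are shared with Cela2a and Ctrc models on the other strand, and without a stated strand setting their reads cannot be told apart; Ctrc itself had at most 0.211 CPM. The tables kept a transcript of 3888 bases for Casp9 in the white depots and of 3885 bases in BAT.

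The promoters of the 3 adjacent inflammatory caspase genes are shown because Casp1, Casp4 and Casp12 were, besides Casp6, the members furthest below WT in BAT of C6KO mice, and that of Casp6 because its WT level was the one closest to equal across depots. Each is a 300-base window around the annotated start (RefSeq, GRCm38.p6, plus strand), and capitals mark matches on either strand to GGGCGG (the SP1 GC box), TTCNNNGAA (a STAT site, which reads the same on both strands) or GAAANNGAA (an interferon regulatory factor core). No matches overlapped each other.
Casp1, chr9:5298267-5298566: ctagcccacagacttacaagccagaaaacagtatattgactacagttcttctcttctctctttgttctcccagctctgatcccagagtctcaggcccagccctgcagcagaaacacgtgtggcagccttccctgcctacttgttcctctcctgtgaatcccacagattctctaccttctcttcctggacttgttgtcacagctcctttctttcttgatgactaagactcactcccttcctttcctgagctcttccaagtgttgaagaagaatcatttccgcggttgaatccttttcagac
Casp4, chr9:5308599-5308898: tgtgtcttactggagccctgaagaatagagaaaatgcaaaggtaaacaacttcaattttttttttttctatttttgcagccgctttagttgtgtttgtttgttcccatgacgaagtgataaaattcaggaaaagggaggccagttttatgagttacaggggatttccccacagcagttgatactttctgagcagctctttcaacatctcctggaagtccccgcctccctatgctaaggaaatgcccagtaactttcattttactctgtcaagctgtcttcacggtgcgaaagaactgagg
Casp12, chr9:5345226-5345525: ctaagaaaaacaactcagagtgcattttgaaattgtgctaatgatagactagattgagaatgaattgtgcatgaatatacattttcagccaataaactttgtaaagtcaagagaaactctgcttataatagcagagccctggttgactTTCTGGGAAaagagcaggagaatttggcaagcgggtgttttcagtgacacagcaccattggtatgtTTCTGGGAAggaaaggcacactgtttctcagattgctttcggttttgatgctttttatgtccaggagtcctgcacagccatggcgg
Casp6, chr3:129901165-129901464: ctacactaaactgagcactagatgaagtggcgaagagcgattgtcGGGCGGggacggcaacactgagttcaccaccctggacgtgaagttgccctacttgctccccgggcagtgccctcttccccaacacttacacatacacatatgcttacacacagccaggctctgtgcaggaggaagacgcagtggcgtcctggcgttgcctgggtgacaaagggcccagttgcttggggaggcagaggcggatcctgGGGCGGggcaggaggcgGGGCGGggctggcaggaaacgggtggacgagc
Casp6 held 3 GC boxes, at positions -205, 1 and 18 counted from 0 at the annotated start, and was 62.0% G or C. Casp1, Casp4 and Casp12 held none and were 48.0%, 42.0% and 41.0% G or C. Of all 32851 promoters of this length, 35.7% hold a GC box. Casp12 held the word TTCTGGGAA at -102 and again at -36, and 8.3% of all promoters hold a STAT site. None of the 4 sequences held the interferon regulatory factor core, which 8.56% of promoters hold. A match is a description of the letters and not a measured binding site.

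The targeted gene was examined first. Casp6 counts in iWAT were 342, 338 and 289 for WT against 99, 112 and 141 for C6KO. They were 322, 422 and 331 against 100, 124 and 74 for eWAT, and 145, 127 and 139 against 26, 65 and 71 for BAT. The genotypes did not overlap in any depot, with C6KO lower. Reads remained on Casp6 in all C6KO libraries: the mean was 35% of WT for iWAT, 27.6% for eWAT and 34.7% for BAT. The tables give 1 count over all exons, so reads from exons inside and outside the targeted part cannot be separated. The log2 fold change was -1.51 in iWAT (standard error 0.20), -1.85 in eWAT (0.19) and -1.50 in BAT (0.33), with edgeR adjusted p of 0.0751, 0.0132 and 0.0671. DESeq2 called Casp6 in the 3 depots. A gene was called at an adjusted p below 0.05 with a fold change of at least 1.5, so edgeR called Casp6 in eWAT only. That call was lost without any one of the 3 WT eWAT libraries (adjusted p 0.0645, 0.0828 and 0.0938), while the log2 fold change stayed between -1.98 and -1.69. Casp6 was called in iWAT without C6KO replicate 3 (-1.69, adjusted p = 0.00119) and in BAT without WT replicate 2 (-1.65, adjusted p = 0.0428). Those 2 fits called 1288 of 14798 and 178 of 13753 genes.

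**Figure D1:**
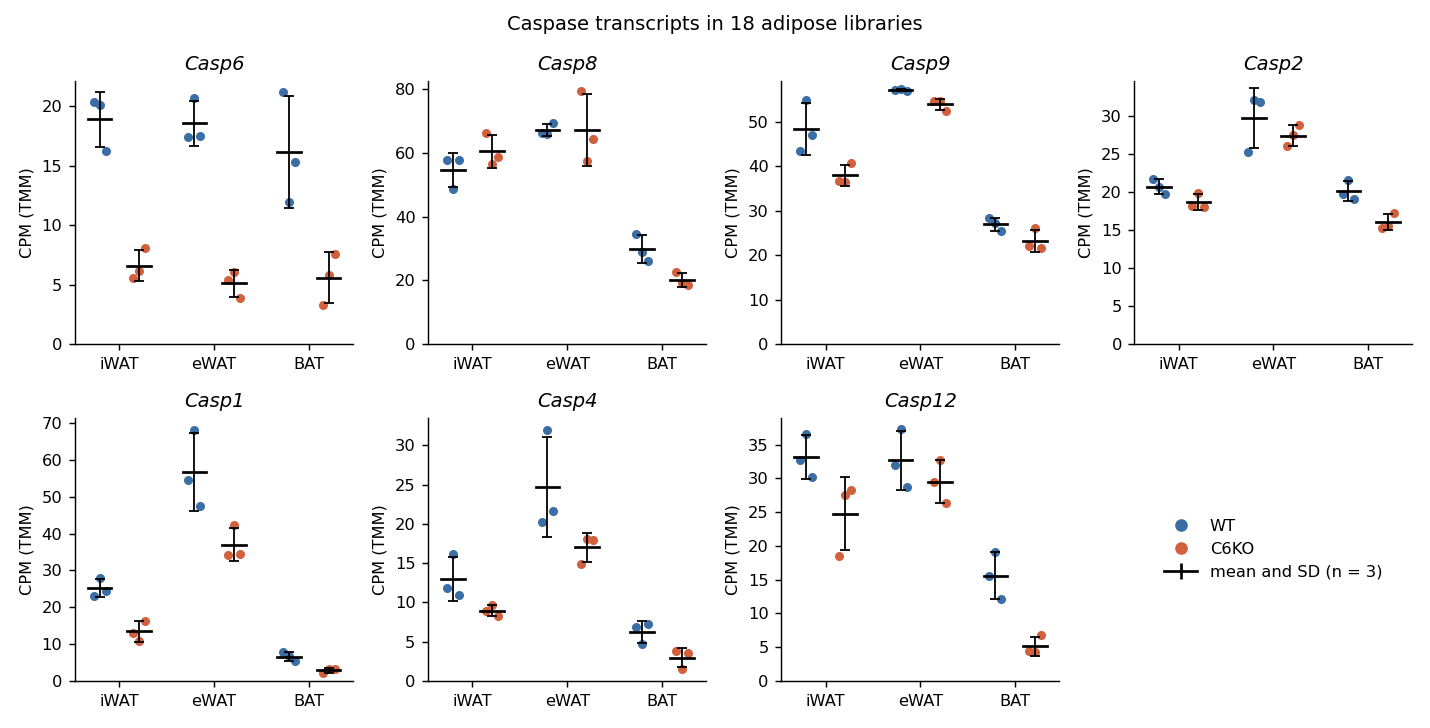
TMM-normalized CPM (vertical axis, starting at 0) of the 7 caspase genes in every library, by depot and genotype; points are libraries, lines are the mean and bars the SD of 3 libraries. Casp6 separates by genotype in the 3 depots, Casp1 does so at lower contrast, and Casp12 separates most widely in BAT, where the WT libraries sit between 12.1 and 19.1 CPM and the C6KO libraries between 4.22 and 6.75.

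The first question is how the caspase transcripts are distributed over the depots of WT mice. Levels of different genes are compared only as CPM per kilobase of listed transcript. In WT iWAT, Casp8 led with 21.3 ± 2.06 CPM per kb (SD, n = 3), followed by Casp1 with 16.8 ± 1.65, and Casp2 was lowest with 5.87 ± 0.29. Between them, the ranges of Casp6, Casp12, Casp9 and Casp4 overlapped from each gene to the next in the order. In WT eWAT, Casp1 was the most abundant member with 37.8 ± 7.01 CPM per kb, above Casp8 with 26.1 ± 0.73, and their ranges did not overlap. Casp4 and Casp9 overlapped next in the order, then Casp6 and Casp12, and Casp2 was again last with 8.46 ± 1.11. In WT BAT, Casp8 (11.6 ± 1.71) and Casp6 (11 ± 3.21) led with overlapping ranges, and Casp1 (4.41 ± 0.83) and Casp4 (4.38 ± 0.97) were last and overlapped, with Casp9, Casp12 and Casp2 between, each overlapping the next. Casp6 made up 9.70% to 9.89% of the summed level of the 7 genes in the WT eWAT libraries, 12.7% to 15.4% in iWAT and 17% to 25.4% in BAT.

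**Figure D2:**
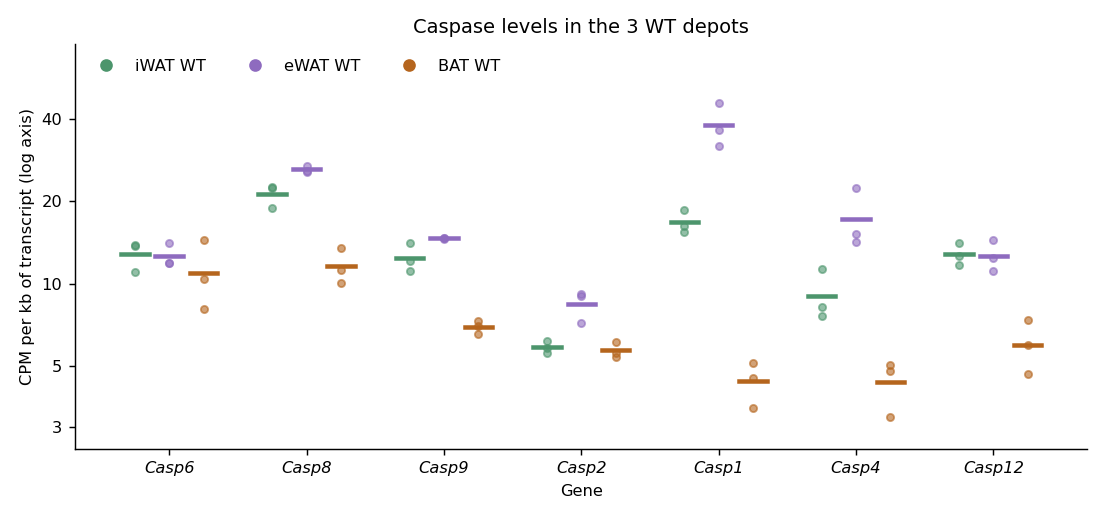
CPM per kb of listed transcript (log axis) of each caspase gene in the 3 WT depots; points are libraries and lines are means of 3. Casp1 spans the widest range, from a mean of 4.41 in BAT to 37.8 in eWAT, whereas the Casp6 means stay between 11 and 12.9.

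Casp1, the inflammasome protease, differed between every pair of depots. Its WT values were 23.2, 27.9 and 24.4 CPM (iWAT), 54.5, 68.2 and 47.6 (eWAT) and 7.74, 6.82 and 5.29 (BAT), with no overlap between depots. It was 2.25-fold higher in eWAT than in iWAT (log2 1.17 ± 0.19 SE, adjusted p = 0.000227, edgeR) and 8.61-fold lower in BAT than in eWAT (log2 -3.11 ± 0.21, adjusted p = 3.43e-09). Against iWAT it was 3.82-fold lower in BAT (adjusted p = 1.22e-06). Casp4 followed the same order, with 11.8, 16.2 and 10.9 CPM (iWAT), 20.3, 32.0 and 21.7 (eWAT) and 6.86, 4.67 and 7.27 (BAT). Its eWAT libraries were all above its iWAT libraries (log2 0.93 ± 0.26, adjusted p = 0.0114), a call lost without eWAT WT replicate 2 (0.70, adjusted p = 0.0799) or iWAT WT replicate 3 (0.82, adjusted p = 0.0564). In BAT it was below iWAT by a log2 of -1.06 (adjusted p = 0.00452) and below eWAT by -1.98 (adjusted p = 1.08e-05). Casp12 kept another order: 32.7, 36.6 and 30.2 CPM in iWAT and 32.0, 37.3 and 28.7 in eWAT overlapped (log2 -0.02, 95% confidence interval -0.44 to 0.40), and only BAT, with 15.5, 19.1 and 12.1, stood below both (-1.09 and -1.07, adjusted p = 0.000382 and 0.000282).

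Among the initiators, Casp8 had 57.9, 48.6 and 57.7 CPM (iWAT), 66.3, 66.0 and 69.4 (eWAT) and 34.7, 28.9 and 26.1 (BAT). Casp9 had 43.3, 54.9 and 46.9 CPM (iWAT), 57.1, 57.3 and 56.9 (eWAT) and 28.3, 27.2 and 25.4 (BAT). For both, BAT was below the white depots with no overlap, by a log2 of -0.87 and -0.84 against iWAT and of -1.17 and -1.08 against eWAT (adjusted p at most 8.21e-05). Both also had every eWAT library above every iWAT library, but by log2 0.30 and 0.24 with adjusted p = 0.105 for each, so neither passed. Casp2 was highest in eWAT, with 25.2, 32.1 and 31.8 CPM against 21.7, 20.6 and 19.7 in iWAT and 19.7, 21.6 and 19.0 in BAT. Its differences passed the p threshold (adjusted p = 0.00319 against iWAT and 0.000849 against BAT) but, at 1.44-fold and 1.48-fold, lay just under the fold minimum. DESeq2 called the difference between BAT and eWAT (-0.60, 1.51-fold, adjusted p = 3.82e-05). Between BAT and iWAT, Casp2 differed by log2 -0.04 (95% confidence interval -0.30 to 0.22).

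Casp6 was the member whose WT means lay closest together across depots, with 20.3, 20.1 and 16.2 CPM (iWAT), 17.4, 20.7 and 17.5 (eWAT) and 21.2, 11.9 and 15.3 (BAT). These groups overlapped. The log2 difference was -0.23 between BAT and iWAT (95% confidence interval -0.78 to 0.32) and -0.21 between BAT and eWAT (-0.76 to 0.34), so differences within these intervals were not excluded.

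In counts, edgeR called 2 of the 7 genes between WT eWAT and iWAT, where 25.7% of all 15866 genes were called. It called 5 of 7 between BAT and iWAT (38.7% of all genes) and 5 of 7 between BAT and eWAT (48.6%), each of the 5 lower in BAT; these comparisons share the BAT WT libraries. The share of genes called was thus high throughout, and the members' counts are to be read against it. The median log2 difference of the 7 was 0.30, -0.87 and -1.08, against 0.01, 0.01 and 0.03 over all genes. Scaling by total counts alone moved the median of all genes to 0.15, -0.13 and -0.26 and the share of calls that were higher from 49.9% to 63.6%, from 51.8% to 41.2% and from 51.4% to 36.7%, but left the members' calls as they were apart from Casp2, which then also passed in eWAT against iWAT (0.67, adjusted p = 0.00115) and in BAT against eWAT (-0.85, adjusted p = 4.56e-05).

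The depots differed in markers of several cell types in the order that Casp1 and Casp4 followed, macrophages among them. All 15 macrophage genes tested were called lower in WT BAT than in eWAT, 14 of 15 were lower in BAT than in iWAT, and 14 of 15 were higher in eWAT than in iWAT. Of all genes, 48.6%, 38.7% and 25.7% were called in these comparisons, in either direction. Other lists kept another order. All 5 endothelial genes were called lower in eWAT than in iWAT and higher in BAT than in eWAT, and 5 of 6 adipocyte genes were called lower in eWAT than in iWAT. The summed level of the macrophage genes was 1020 to 1450 CPM in BAT, 3050 to 3480 in iWAT and 9520 to 11200 in eWAT. Adipocyte progenitor markers summed to 587 to 921, 1100 to 1150 and 2200 to 2550 CPM in the same order of depots, and neutrophil markers to 3.36 to 8.47, 14.4 to 15.4 and 20.3 to 34.7 CPM, also without overlap. In tissue RNA, fewer cells of a type and less RNA per cell cannot be told apart, and the part of these cell types in the caspase differences was not tested. Without BAT WT replicate 2, the library with the high muscle markers, Casp1, Casp4, Casp8, Casp9 and Casp12 were again called against both white depots, and Casp2 was added against eWAT.

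The second question is whether other caspase transcripts rise when Casp6 is deleted. No rise was found among the 6 described here. In the 3 depots, none of the 6 other genes was called higher, by edgeR or by DESeq2, and in none did every C6KO library lie above every WT library. The 18 log2 fold changes (6 genes in 3 depots) included 16 below 0, and the upper 95% confidence bound was under a 1.5-fold rise in all 18. The highest such bound was that of Casp8 in iWAT, at log2 0.43 or 1.35-fold. These intervals are per gene and not adjusted for their number. They describe whole-tissue RNA, so a rise within 1 cell type, such as adipocytes, was not tested. Summed over the 6 genes, the level was 75.6 to 82.9 CPM per kb in WT iWAT against 61.6 to 65.9 in C6KO, 109 to 132 against 92.3 to 97.6 in eWAT, and 35.4 to 42.3 against 23.6 to 24.9 in BAT. The summed level was thus lower in every C6KO library than in any WT library of its depot.

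edgeR called 0 of the 6 genes in iWAT, where 4 of 14533 genes (0.0275%) were called, 0 in eWAT (0.746% of 14889 genes) and 1, Casp12, in BAT (1.24% of 13595 genes). At an unadjusted p under 0.05 there were 4, 2 and 4 of the 6, each lower in C6KO. Of all genes tested, 9.29%, 7.82% and 8.64% were lower at that threshold, which carries no fold minimum, and 16.5%, 17.6% and 13.2% passed it in either direction. DESeq2, which called 4.72%, 3.99% and 3.67% of the genes it gave an adjusted p, called 1 member in each depot: Casp1 in iWAT, Casp1 in eWAT and Casp12 in BAT, each lower. Without overlap between the genotypes, C6KO libraries lay wholly below the WT libraries for 4 of the 6 genes (iWAT), 3 (eWAT) and 5 (BAT). Over every gene tested, this held for 12.3%, 11.6% and 12.3%.

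**Figure D3:**
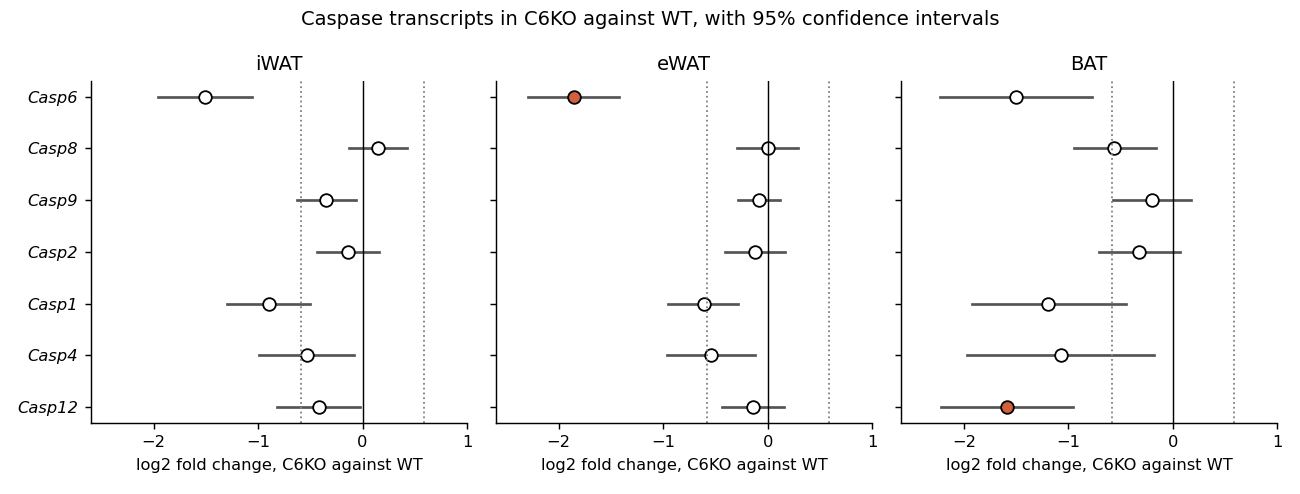
Log2 fold change of each caspase gene in C6KO against WT, one panel per depot; points are edgeR estimates, lines 95% confidence intervals, filled points are genes called, and dotted lines mark a 1.5-fold change. Of the 18 intervals of the other genes, 10 lie wholly left of 0 and none reaches the right dotted line, and Casp12 in BAT (-1.59) is the only other gene called.

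Casp12 changed most in BAT. The WT libraries had 106, 204 and 110 counts, or 15.5, 19.1 and 12.1 CPM, and the C6KO libraries 35, 47 and 63 counts, or 4.47, 4.22 and 6.75 CPM. The 2 groups did not overlap. The difference was 3.01-fold (log2 -1.59 ± 0.28 SE, 95% confidence interval -2.22 to -0.96, edgeR adjusted p = 0.0318, and 0.000236 by DESeq2). The call was lost when any one of the 6 BAT libraries was left out, with adjusted p of 0.0518 (without WT replicate 3) to 0.156 (without C6KO replicate 2), though the log2 fold change stayed between -1.81 and -1.38. In iWAT, Casp12 had 32.7, 36.6 and 30.2 CPM in WT and 18.5, 27.5 and 28.3 in C6KO, lower by log2 0.42 in C6KO without passing (adjusted p = 0.285). In eWAT the groups overlapped (-0.14, 95% confidence interval -0.44 to 0.16).

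Whether the C6KO effect itself differed between depots was tested as an interaction over all 18 libraries. For Casp12 it differed between BAT and eWAT by log2 -1.45 (SE 0.30, 95% confidence interval -2.08 to -0.82, edgeR adjusted p = 0.0364), where 0.536% of 15866 genes were called. Leaving out a library ended this call in 9 of 12 cases, with the highest adjusted p, 0.124, without BAT C6KO replicate 2. The exceptions were BAT C6KO replicate 3, BAT WT replicate 3 and eWAT C6KO replicate 3. The call was also lost with scaling by total counts (adjusted p = 0.0557) and with only the 4 groups compared in the fit (adjusted p = 0.0568). Against iWAT the difference for Casp12 was -1.17 (adjusted p = 0.156, 0.183% of genes called). The other members were not called in any of the 3 interactions, and between eWAT and iWAT edgeR called no gene (0.0%; at an unadjusted p under 0.05 and the same fold minimum there were 646, and DESeq2 called 14). That 0.156 was the lowest adjusted p among the 20 member contrasts besides the one called.

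Casp1 was below WT in every C6KO library of each depot. In iWAT the values were 23.2, 27.9 and 24.4 CPM in WT and 13.1, 10.9 and 16.4 in C6KO, a log2 fold change of -0.90 (95% confidence interval -1.30 to -0.50, edgeR adjusted p = 0.145, DESeq2 adjusted p = 0.00286). C6KO replicate 3, the library with the most macrophage markers among the iWAT C6KO libraries, had the highest Casp1 of the 3, and without it edgeR called Casp1 (-1.07, adjusted p = 0.00607). The fit without that library called 1288 of 14798 genes, 946 of them lower in C6KO, against 4 of 14533 with all 6 libraries. In eWAT it had 54.5, 68.2 and 47.6 CPM against 34.3, 42.3 and 34.5 (-0.61, 95% confidence interval -0.95 to -0.28, edgeR adjusted p = 0.0749, DESeq2 adjusted p = 0.012). The eWAT estimate stands just above the fold minimum. It ran from -0.73 to -0.45 when 1 library was left out, at its weakest under that minimum. In BAT, Casp1 rested on few reads, with 53, 73 and 48 counts in WT against 16, 37 and 30, and a log2 fold change of -1.19 (edgeR adjusted p = 0.135).

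Casp4 showed the same direction with lower precision. Its C6KO libraries had 8.85, 9.66 and 8.25 CPM (iWAT), 14.9, 18.1 and 18 (eWAT) and 3.83, 1.53 and 3.54 (BAT), in each depot all below the WT values given above. The log2 fold changes were -0.53, -0.54 and -1.07 with edgeR adjusted p of 0.247, 0.174 and 0.282, so none passed. When 1 library was left out, they ran from -0.64 to -0.35, from -0.66 to -0.3 and from -1.27 to -0.73. In iWAT C6KO replicate 3, the library with the most macrophage markers of its group, Casp4 was 8.25 CPM. The counting error of an iWAT C6KO library with the mean count is 7.92%, so the order of Casp4 among these libraries is uncertain. In BAT, Casp4 had 30, 17 and 33 counts in C6KO, and the counting error of a library with the mean count is 19.4%.

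The initiator genes differed less. Casp8 was the 1 gene of the 6 with an estimate above 0.05 in any depot: in iWAT the C6KO libraries had 66.4, 56.6 and 58.6 CPM, overlapping the WT range of 48.6 to 57.9 (log2 0.15, 95% confidence interval -0.13 to 0.43). In eWAT its C6KO values of 79.5, 57.5 and 64.3 CPM lay on both sides of WT (0.00, -0.29 to 0.29), and in BAT its values of 22.5, 19.3 and 18.6 CPM lay below WT (-0.56, adjusted p = 0.197). Casp9 had 36.7, 36.4 and 40.7 CPM in C6KO iWAT, each below WT (-0.35, adjusted p = 0.236), 54.6, 54.6 and 52.4 in eWAT (-0.08, 95% confidence interval -0.28 to 0.12) and 22.0, 26.1 and 21.6 in BAT (-0.20, -0.57 to 0.17). The C6KO libraries had 18.1, 19.9 and 18 CPM of Casp2 (iWAT), 26.0, 27.4 and 28.7 (eWAT) and 15.3, 15.5 and 17.2 (BAT), with log2 fold changes of -0.14, -0.12 and -0.32, none of which passed. The summed level of Casp2, Casp8 and Casp9 overlapped between genotypes in iWAT (38.8 to 40.1 CPM per kb in WT, 37.0 to 40.4 in C6KO) and in eWAT (47.6 to 50.7 and 44.2 to 52.4), but not in BAT (22.1 to 26.4 and 17.7 to 18.8). That of Casp1, Casp4 and Casp12 was lower in each C6KO library of the 3 depots: 35.6 to 44.1 against 22.1 to 27.6 in iWAT, 57.9 to 82.2 against 44.6 to 53.5 in eWAT, and 13.3 to 15.9 against 4.91 to 7.21 in BAT.

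Macrophage markers had lower summed values in the same libraries. The summed level of the 15 markers was 3050 to 3480 CPM in WT iWAT and 768 to 2230 in C6KO (2230 in replicate 3), 9520 to 11200 against 6260 to 8380 in eWAT, and 1020 to 1450 against 380 to 581 in BAT. Adgre1, the gene of the macrophage antigen F4/80, was at 113 to 153 CPM against 17 to 84.4, 530 to 680 against 379 to 447, and 35.7 to 60.1 against 11.2 to 15.6, and was at 0 in no library. The median log2 fold change of the list was -1.38, -0.55 and -1.20, and edgeR called 0, 0 and 6 of the 15 genes, each lower, with 13, 12 and 12 lower at an unadjusted p under 0.05 (9.29%, 7.82% and 8.64% of all genes) and 7, 5 and 12 called lower by DESeq2. Estimates were lower for 15, 14 and 13 of the 15 markers, with Cd163 (0.52) and Mertk (0.32) higher in BAT. The part of the macrophage markers in the lower Casp1, Casp4 and Casp12 was not tested. Skeletal muscle markers did not separate the genotypes in BAT, with 41.0 to 30800 CPM summed in WT and 369 to 6260 in C6KO.

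The pathways around the caspases were read from lists of 5 to 24 genes. Of the pyroptosis and inflammasome list, edgeR tested 20, 21 and 17 genes in iWAT, eWAT and BAT and called none, while DESeq2 called 4, 5 and 1, each lower in C6KO. The unadjusted p was under 0.05 for 12, 10 and 6 of them, lower in C6KO for 11, 10 and 6, beside 16.5%, 17.6% and 13.2% of all genes in either direction and 9.29%, 7.82% and 8.64% lower. The median log2 fold change was -0.83, -0.46 and -0.54, against 0.03, -0.01 and -0.03 over all genes. Pycard, the adaptor ASC that joins inflammasome sensors to caspase-1, was counted 196, 178 and 214 times in WT iWAT against 27, 41 and 143 in C6KO (log2 -1.52, adjusted p = 0.256). In BAT it had 32, 74 and 33 counts against 4, 14 and 21 (-1.90, adjusted p = 0.133). P2rx7, the ATP-gated channel that triggers the NLRP3 inflammasome, was 37.2 ± 4.97 CPM in WT iWAT and 18.6 ± 6.71 in C6KO (-1.0, adjusted p = 0.165) and 104 ± 9.76 against 78.1 ± 7.13 in eWAT (-0.41, adjusted p = 0.0942). Naip6, a sensor of bacterial flagellin, was 22.3 ± 4.31 against 12.8 ± 1.65 CPM in eWAT (-0.79, adjusted p = 0.0623), where reads may be shared with the other Naip copies. Aim2, a sensor of cytosolic DNA, was 23.9 ± 4.82 against 15 ± 1.70 CPM there (-0.67, adjusted p = 0.0886). The iWAT value of Nlrp1a, an inflammasome sensor with a close copy in Nlrp1b, rested on 34, 49 and 45 WT counts against 8, 11 and 7 for C6KO (-2.33, adjusted p = 0.144). Gbp2, an interferon-induced GTPase, stood out in eWAT WT replicate 2, with 6751 counts beside 1257 and 1369 in the other WT libraries, while its BAT values of 403, 475 and 589 counts stood above 235, 350 and 396 (-0.68, adjusted p = 0.145).

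The lists upstream of the initiators stayed near the median of all genes. In the death receptor list, edgeR called 0 of 16, 17 and 15 genes (1, 2 and 1 at an unadjusted p under 0.05, 0 by DESeq2), and the median log2 fold change was -0.06, -0.08 and -0.12. Over all genes, 16.5%, 17.6% and 13.2% passed that unadjusted threshold, and DESeq2 called 4.72%, 3.99% and 3.67%. Fas, the receptor that recruits caspase-8, was 21.7 ± 1.78 CPM in WT eWAT and 28.2 ± 4.29 in C6KO (0.38, adjusted p = 0.187). Tnfrsf1b, a receptor for tumour necrosis factor, was 28.0 ± 1.11 against 17.7 ± 3.8 CPM in BAT (-0.65, adjusted p = 0.161), and Ripk3, the necroptosis kinase, was 5.31 ± 1.38 against 3.09 ± 1.15 (-0.76, adjusted p = 0.443). Tnfrsf25, a death receptor best known from T cells, was 5.50 ± 0.59 against 8.84 ± 2.38 CPM in iWAT (0.69, adjusted p = 0.245). Zbp1, a nucleic acid sensor of necroptosis, had 211, 925 and 237 counts in WT eWAT against 144, 145 and 184, so that WT replicate 2 again stood apart.

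The apoptosome list, which holds caspase-9's partners and the inhibitors of apoptosis, had medians of 0.05, 0.00 and 0.02 with 0 of 12, 12 and 10 genes called by edgeR and DESeq2 and 1 per depot at an unadjusted p under 0.05. For this list and the next, the shares of all genes at that unadjusted threshold were 16.5%, 17.6% and 13.2%. Apaf1, the scaffold of the apoptosome, was 21.5 ± 2.19 CPM in WT iWAT and 15.3 ± 3.02 in C6KO (-0.48, adjusted p = 0.247), and in each depot its C6KO libraries were all below WT. Birc3, an inhibitor of apoptosis, was 17.9 ± 1.28 against 10.5 ± 0.94 CPM in BAT (-0.76, adjusted p = 0.100), whereas Birc2 was 40.3 ± 2.87 against 48.3 ± 4.43 CPM in iWAT (0.27, adjusted p = 0.318). Birc5, which encodes the mitotic protein survivin, was 15.2 ± 1.49 against 9.73 ± 3.62 CPM in eWAT (-0.64, adjusted p = 0.213). The PIDDosome list around caspase-2 had 0 of 5 genes called in each depot by both tools, and 0, 0 and 1 at an unadjusted p under 0.05. Its p53 targets Cdkn1a (98.7 ± 10.7 against 58.6 ± 26.6 CPM in iWAT) and Mdm2 (60.2 ± 1.36 against 52.1 ± 3.57) did not pass, and Trp53 itself was 25.2 ± 1.97 against 19.0 ± 1.82 CPM in BAT (-0.39, adjusted p = 0.367).

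In the BCL2 list, edgeR called 0 of 17, 16 and 15 genes, with medians of -0.25, -0.13 and -0.15. At an unadjusted p under 0.05 there were 4, 4 and 2, beside 16.5%, 17.6% and 13.2% of all genes. DESeq2 called 1, 0 and 1, beside 4.72%, 3.99% and 3.67% of all genes. Bcl2a1b, an anti-apoptotic member best known from blood cells, was counted 97, 98 and 85 times in WT iWAT against 22, 14 and 41 in C6KO (-1.90, adjusted p = 0.154). Its reads can be shared with the near-identical copies Bcl2a1a and Bcl2a1d, so its own change is uncertain. Bcl2l2, an anti-apoptotic member, was 86.3 ± 5.01 against 120 ± 15.9 CPM in iWAT (0.47, adjusted p = 0.167) and 57.2 ± 5.23 against 77.5 ± 10 in eWAT (0.44, adjusted p = 0.111), with every C6KO library above WT in both. Bcl2 itself was 17.5 ± 4.58 against 10.5 ± 1.70 CPM in BAT (-0.74, adjusted p = 0.246).

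Transcripts of known caspase-6 substrates were read as a list of 10 genes, with medians of 0.07, 0.03 and 0.05. edgeR called none of them in any depot. At an unadjusted p under 0.05 there were 3, 4 and 3, of which 1, 1 and 2 were lower in C6KO. Of all genes, 16.5%, 17.6% and 13.2% passed in either direction, and 9.29%, 7.82% and 8.64% were lower. DESeq2 called 1 per depot, beside 4.72%, 3.99% and 3.67% of all genes. These were Mapt, higher in iWAT (DESeq2 adjusted p = 0.0303) and BAT (0.049), and Lmnb1, lower in eWAT (0.0386). Lmnb1, which encodes lamin B1 of the nuclear envelope, was below WT in every C6KO library: 11.5 ± 1.61 against 7.26 ± 2.18 CPM in iWAT, 25.8 ± 4.23 against 16.8 ± 2.98 in eWAT (-0.62, adjusted p = 0.106) and 7.88 ± 2.97 against 3.52 ± 1.09 in BAT. Mapt, the gene of tau, was 2.52 ± 0.94 against 5.99 ± 1.19 CPM in iWAT (1.25, adjusted p = 0.168), 0.987 ± 0.16 against 2.32 ± 0.26 in eWAT (1.23, adjusted p = 0.103) and 68.6 ± 12.2 against 142 ± 71.1 in BAT, where the groups overlapped (1.06, adjusted p = 0.353). App, the amyloid precursor protein gene, was 475 ± 47.5 against 323 ± 5.35 CPM in BAT (-0.55, adjusted p = 0.177) and 991 ± 22.1 against 1200 ± 116 in eWAT (0.28, adjusted p = 0.268).

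**Figure D4:**
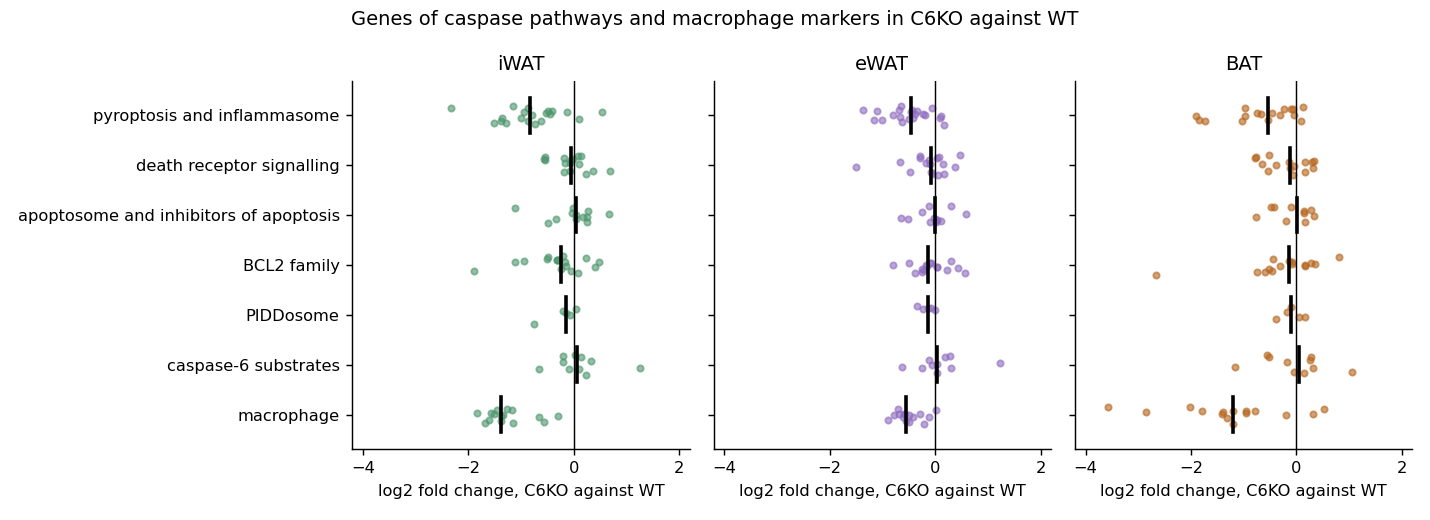
Log2 fold change in C6KO against WT (horizontal axis) of the tested genes of 6 caspase pathway lists and of the macrophage markers, one panel per depot; points are genes and black lines list medians. The medians of the pyroptosis and inflammasome list (-0.83, -0.46 and -0.54) and of the macrophage markers (-1.38, -0.55 and -1.20) lie left of 0. Single genes lie right of 0 for the pyroptosis list in each depot and for the macrophage markers in eWAT and BAT. The medians of the other lists lie between -0.25 and 0.07.

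Genes next to Casp6 were also read. Mcub, a subunit of the mitochondrial calcium uniporter that lies 848 bases beyond Casp6 on the other strand, was lower in every C6KO library, with 31.1, 33.5 and 26.5 CPM in WT eWAT and 13.9, 17.6 and 12.3 in C6KO (log2 -1.05 ± 0.16 SE, edgeR adjusted p = 0.0419). It had 10.6, 15 and 14.3 CPM against 2.19, 3.84 and 4.70 in iWAT (-1.89, adjusted p = 0.113) and 5.84, 4.21 and 3.74 against 1.28, 1.08 and 1.5 in BAT (-1.81, adjusted p = 0.0546). The cause was not tested. Pla2g12a, a secreted phospholipase gene 5590 bases on the other side, was not called in any depot (-0.35, 0.08 and -0.46). The neighbours of the other members, leaving out the members themselves, were not called wherever they were tested: Cflar beside Casp8 was within 0.06 to 0.16, and Pdgfd, beyond Casp12, was 0.11, 0.12 and -0.70.

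The genes whose pattern was most like each member were found by Pearson's r of log2 CPM after subtracting each depot's mean, over the 18 libraries and 14209 genes; the 18 libraries share depots and genotypes, so r describes them and is given without a test. Casp6 was most like Rpl34-ps1 (r = 0.957) and Rpl34 (0.947), listed 812725 and 812715 bases beyond it on chromosome 3. Rpl34, a ribosomal protein gene, was 36.1 CPM in WT iWAT and 1.08 in C6KO on average, 63.9 against 1.18 in eWAT and 47.9 against 1.03 in BAT (log2 -5.04, -5.74 and -5.50, edgeR adjusted p at most 0.000181). The 2 models overlap, so they share reads and are 1 signal. The cause of the lower counts was not tested, and counts alone do not show that the Rpl34 transcript was lost. Casp1 was most like Cd52, Tbxas1 and Cd101 (r = 0.932, 0.930 and 0.927), genes expressed in leukocytes, and Casp12 was most like Sgpp1, a sphingosine-1-phosphate phosphatase gene (0.924). Ugt1a1 and Ugt1a2, which followed Casp12 (0.920 and 0.918), share exons of 1 locus and are likewise 1 signal. For Casp4 the first were Marcks, Ypel4 and Slc2a6 (0.891, 0.883 and 0.876), and Casp8 was close to Nek6, a mitotic kinase gene, and F3, the tissue factor gene (0.872 and 0.871). Casp9 was followed most closely by Sh3pxd2b, Cadm1 and Slamf7 (0.877, 0.867 and 0.866), and Casp2 by Gpr141b, Sept6 and Klrk1 (0.834, 0.831 and 0.829). The third gene for Casp6 was Skap2 (0.919). Among the members, the highest r was that of Casp1 with Casp6 (0.902), followed by Casp1 with Casp9 (0.828) and Casp1 with Casp12 (0.820). When each group's mean was subtracted instead, so that the genotype no longer entered, these fell to 0.690, 0.597 and 0.483, and Casp1 with Casp4, its nearest neighbour on the chromosome, went from 0.651 to -0.159. The r of the genes named as most alike fell too, to between 0.341 (Rpl34 with Casp6) and 0.788 (Cd101 with Casp1). For Rpl34-ps1 with Casp6 it was 0.622, and for Sgpp1 with Casp12 0.777. The depot-centred r thus includes the difference between genotypes.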

How the data were processed

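The authors made poly(A) libraries, aligned the NextSeq reads to mm10 with default STAR settings and used HOMER to count reads over exons, keeping 1 transcript per gene. The deposited tables, 1 per depot, hold raw counts. Tool versions, annotation and strandedness are not given in the sources used here.

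Tests used edgeR 4.0.16 (quasi-likelihood, robust, TMM, filterByExpr) in R 4.3.3: per depot for C6KO against WT, and in 1 fit of all 18 libraries for WT depots and interactions. Calls needed a Benjamini-Hochberg adjusted p under 0.05 and a fold of at least 1.5. Standard errors and 95% intervals were derived from F, and ± beside a CPM is the SD. TMM factors for CPM came from all 18 libraries. The labels do not say more of how replicates were taken, so p-values measure the spread between these libraries. Kept transcripts differed between tables for 2619 genes. Alternatives were DESeq2 1.42.0, its size factors in edgeR, total counts, other filters, no fold minimum, other sets of libraries, a replicate block and leaving out each library. The fits were tested on simulated data. The simulation gave each depot the same spread, although BAT varied more, and changed only well-counted genes. It therefore does not cover members with few reads in BAT.

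The members, the gene lists and the rule for named genes were chosen with earlier results of these data known. Named were the members, list genes called or with the 2 smallest p per list and depot, defining markers, chromosomal neighbours, and the 3 genes most like each member. Other caspase genes, and 1 of the genes most like a member, are not reported here. Figures used matplotlib 3.10.9. The total counts per library limit precision as given above. Within a depot, deviations of same-numbered WT and C6KO libraries from their group means had correlations from 0.023 to 0.071 (iWAT), -0.082 to 0.146 (eWAT) and -0.458 to -0.148 (BAT). Between depots, same-numbered libraries of 1 genotype had a mean correlation of 0.0534 (-0.066 to 0.219), and those with other numbers -0.0267 (-0.246 to 0.16). These values do not settle whether a number marks 1 mouse across depots. Libraries were treated as unpaired.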

Additional observations from a re-analysis of the deposited data

Results flagged for a closer look

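The effect of C6KO on Casp12 differed between depots by a test of the difference itself: the log2 fold change in BAT was lower than in eWAT by an interaction term of -1.45 (edgeR adjusted p = 0.0364). The call was lost in 9 of 12 fits that left out 1 library, with total counts (adjusted p = 0.0557) and with only the groups compared (adjusted p = 0.0568). In BAT every C6KO library lay below every WT library, and in eWAT the groups overlapped. The macrophage markers given beside the result were lower in C6KO in both depots, and their part in the difference was not tested. Groups of 3 libraries are too small for the rule on single outlying samples, so none was applied.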

How the results depend on the processing

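With 3 libraries a group, and fewer reads in BAT, calls changed more than estimates. The number of caspase genes called besides Casp6 moved between 0 and 1 in iWAT (1, Casp1, by DESeq2 and with all 18 libraries in 1 fit), between 0 and 1 in eWAT (1, Casp1, by DESeq2, without a filter and with the replicate block) and between 0 and 2 in BAT (2, with Casp1, in the fit of all 18 libraries, and 0 with the block). Leaving out 1 library gave 0 to 1 in iWAT, 0 in eWAT and 0 in BAT, 1 to 3 for WT eWAT against iWAT, 5 for BAT against iWAT, 5 to 6 for BAT against eWAT, and 0 to 1 for the interaction of BAT against eWAT, which was 0 with total counts and with only the groups compared. For BAT against iWAT the interaction count rose to 1 (Casp12) with DESeq2. Casp6 in iWAT passed with DESeq2 (-1.52), without a filter (-1.51), in the fit of all libraries (-1.51) and with the block (-1.52), and ran from -1.69 to -1.40 when 1 library was left out. In eWAT that range was -1.98 to -1.69 and in BAT -1.76 to -1.22. In BAT, Casp6 passed with DESeq2 (-1.48), without a filter (-1.47) and in the fit of all libraries (-1.51). Without a fold minimum, Casp2 was added in WT eWAT against iWAT (3 called) and BAT against eWAT (6). Signs turned only for values near 0: Casp8 in eWAT (-0.05 with total counts, -0.00011 without a filter, -0.0032 in the fit of all libraries, -0.01 with the block, a range of -0.13 to 0.12 leaving out 1 library), and WT eWAT against iWAT for Casp6 (0.01 with DESeq2 and its size factors, 0.12 with total counts, -0.12 to 0.03) and Casp12 (0.01 and 0.01, 0.12, -0.13 to 0.06). Casp2 in WT BAT against iWAT ran from -0.09 to 0.00075. With the replicate block, Casp12 in BAT was -1.59 (adjusted p = 0.0789). Whether a replicate number pairs libraries was not settled (correlations above), so the block values describe a shared number only. In eWAT with total counts alone, 58.8% of calls were higher in C6KO, against 72.1% with TMM. Numbers of all genes called in iWAT were 4 with edgeR, 674 with DESeq2, 32 without a filter, 366 in the fit of all libraries and 62 with the block. In eWAT they were 111, 618, 321, 4 and 414, and 68 with total counts. In BAT they were 168, 545, 237, 526 and 113. Without C6KO replicate 3, edgeR called 1288 genes in iWAT. For the interactions DESeq2 called 14, 164 and 341 against 0, 29 and 85, and 6 were called between BAT and iWAT with only the groups compared. The cause was not tested.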

Other observations

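Markers of other cell types also differed between genotypes. Of 6 adipocyte genes in eWAT, 5 had every C6KO library above WT, a count for which no share over all genes was computed. At an unadjusted p under 0.05 there were 5, beside 17.6% of all genes in either direction. edgeR called 1 higher and DESeq2 called 3, beside 0.746% and 3.99% of all genes. In iWAT, 4 of the 6 had every C6KO library above WT, and 2 had an unadjusted p under 0.05 (16.5% of all genes). Neither tool called any of them there. The summed endothelial markers in eWAT were 467 to 532 CPM in WT and 664 to 802 in C6KO, those in BAT 833 to 1110 and 1160 to 1210, and those in iWAT overlapped. In eWAT the summed mast cell markers were 117 to 170 CPM against 60.1 to 83.7. DESeq2 called 3 of 4 mast cell genes lower there, beside 3.99% of all genes in either direction. The mast cell sums in BAT were 25.7 to 37.3 CPM in WT and 20.8 to 24.4 in C6KO, and those in iWAT overlapped. Adipocyte progenitor markers summed to 1100 to 1150 CPM in WT iWAT against 597 to 997 in C6KO, and to 2200 to 2550 against 1880 to 2080 in eWAT, while in BAT they overlapped (587 to 921 and 518 to 855). edgeR called none of the 6 progenitor genes in any depot. At an unadjusted p under 0.05, 3, 1 and 1 were lower, beside 9.29%, 7.82% and 8.64% of all genes. DESeq2 called 1, 0 and 0 of them, beside 4.72%, 3.99% and 3.67% of all genes. The part of these cell types in the caspase values was not tested. In eWAT, the mast cell protease gene Cpa3 was 66.2, 58.8 and 43.1 CPM in WT and 19.5, 21.9 and 29.8 in C6KO (log2 -1.23, edgeR adjusted p = 0.0436), and the lipid droplet gene Plin1 was 569, 562 and 574 against 942, 878 and 793 CPM (0.62, adjusted p = 0.0468). In BAT, Lep, the gene of the hormone leptin, was 398, 536 and 341 against 21.1, 42.2 and 61.8 CPM (-3.35, adjusted p = 0.0146), and Trem2, a receptor of lipid-associated macrophages, was 34.7, 15.5 and 17.4 against 1.15, 1.26 and 3.11 CPM (-3.58, adjusted p = 0.0132). These 4 genes were chosen after their values were seen. Lep did not stand for its list in BAT. The other adipocyte genes there had log2 fold changes of 0.61 (Cidec), 0.39 (Lpl), 0.06 (Adipoq), 0.03 (Plin1) and -0.24 (Fabp4). The summed adipocyte markers overlapped in BAT, with 20100 to 29700 CPM in WT and 22700 to 27600 in C6KO. Of the endothelial list, edgeR called none of 5 genes in any depot, with medians of 0.11, 0.56 and 0.19. At an unadjusted p under 0.05 there were 1, 4 and 1, beside 16.5%, 17.6% and 13.2% of all genes. DESeq2 called 0, 2 and 0 of the endothelial genes, beside 4.72%, 3.99% and 3.67% of all genes.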
